A study of Mus musculus with 2 samples.

Results

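The comparison is between 2 groups of cell barcodes, droplets each taken as a cell, inside 1 single-cell RNA library of cells grown from mouse aorta. Barcodes that carried the Cafum tag alone were set against barcodes that carried the Macrophages tag alone. Both groups were chosen on their counts of oligonucleotide tags and not on any gene. The Cafum tag alone was found on 13070 of the 33964 barcodes that passed the quality filters (38.5%, exact 95% interval 38.0–39.0), and the Macrophages tag alone on 2662 (7.84%, 7.55–8.13), together 15732 of the 34813 deposited barcodes.

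Per the labels, both groups came from the dorsal aortas of 2 C57BL/6J males, 12 weeks old. Their cells, dissociated with Liberase, were grown for 14 days in methylcellulose, and macrophage colonies (CFU-M, colony-forming unit macrophage) were dispersed and sorted for viability with DAPI. Suspensions were then tagged by MULTI-seq, in which a lipid holds a known oligonucleotide on the cell surface, and pooled into 1 run. The labels call all cells CFU-M progenitors, pool the animals and do not say what the names Cafum and Macrophages stand for, so the groups are called by their tags. With 1 library no test between groups is possible, and intervals cover counting error only.

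Mast cells and macrophages are both blood-lineage cells found in the vessel wall. Mast cells need the receptor Kit, store histamine, heparin and proteases in granules, and release them when IgE bound to its receptor is crosslinked. Macrophages need the receptor Csf1r, engulf debris, make complement C1q and present antigen on MHC class II, and resident macrophages of the outer arterial wall are known for Lyve1 and Mrc1.

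The 4 marker genes split the groups in both directions. Levels are CPM, UMIs (counted RNA molecules) per 1000000 gene UMIs of the group. Cpa3, the mast cell carboxypeptidase (chromosome 3, 20215620–20242181, minus strand, GRCm38), had 16170.4 CPM in Cafum-tagged barcodes (16153.8–16187.1) and 6309 CPM in Macrophages-tagged barcodes (6280–6338). Kit (chromosome 5, 75574916–75656722, plus strand) had 1218 CPM (1213–1223) and 486 CPM (478–494), a ratio of 2.51 (2.46–2.55). With stricter tag thresholds the log2 ratio of Kit was 0.93 in place of 1.33, under 2-fold. Both mast cell genes were thus higher in the Cafum group but well above 0 in the other. Csf1r (chromosome 18, 61100598–61132149, plus strand, where Hmgxb3 overlaps on the opposite one) had 2.44 CPM (2.24–2.65) in Cafum-tagged and 438 CPM (431–446) in Macrophages-tagged barcodes, a 179.9-fold difference. C1qa, a chain of C1q (chromosome 4, 136895917–136898803, minus strand), had 10.2 CPM (9.81–10.7) and 1974 CPM (1957–1990), a 193-fold difference. The macrophage genes were close to absent from the Cafum group. In the barcodes with the Matrigel tag alone, the third suspension of the run, Kit had 174 CPM, Cpa3 2132 CPM, Csf1r 6.69 CPM and C1qa 9.84 CPM.

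The tag values that chose the groups are given as a description. The median Cafum tag count was 3135.5 UMIs on Cafum-tagged and 1372 on Macrophages-tagged barcodes, and the median Macrophages tag count was 474 and 2443. A barcode needed 2462.6 Cafum tag UMIs, 1.4 times the background of 1759, and the members nearest the threshold had 2462 (outside) and 2463 (inside). Within 10% of that threshold lay 3945 barcodes below and 3452 above. The Macrophages threshold of 988 UMIs, 2 times a background of 494, had 222 barcodes within 10% below it and 218 above. No tag was positive on 11649 kept barcodes (34.3%), which were in neither group. They had medians of 9673 gene UMIs and 2022 Cafum tag UMIs, and Cma1, Cpa3 and Mcpt4 were among their genes with most UMIs. The Cafum group held 223993388 gene UMIs, with a median of 15112 per barcode, against 29165164 and 8666 in the Macrophages group. Detected genes had medians of 3775 and 2741, mitochondrial UMIs of 2.08% and 4.11%, and ribosomal protein genes took 21.1% and 15.04% of all UMIs. Scrublet called 10.2% of Cafum-tagged and 9.24% of Macrophages-tagged barcodes as doublets, and they were kept.

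Within the Cafum group the barcodes formed a single population by these markers, and within the Macrophages group they formed several. The 7 mast cell genes Cma1, Mcpt4, Tpsb2, Cpa3, Fcer1a, Ms4a2 and Hdc took a median of 6.07% of the UMIs of a Cafum-tagged barcode, from 3.47% at the 5th to 9.36% at the 95th percentile. In Macrophages-tagged barcodes their median share was 0.375%, the 25th percentile 0.245%, the 75th 3.32% and the maximum 13.5%. A share under 1% was found in 1746 Macrophages-tagged barcodes (65.6%) and in 16 Cafum-tagged barcodes (0.122%), and only 230 Macrophages-tagged barcodes lay between 0.5% and 2%. The 8 macrophage genes Csf1r, Adgre1, C1qa, C1qb, C1qc, Mrc1, Cd68 and Lyz2 took a median of 0.00477% of UMIs in the Cafum group and 1.39% in the Macrophages group.

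**Figure D1:**
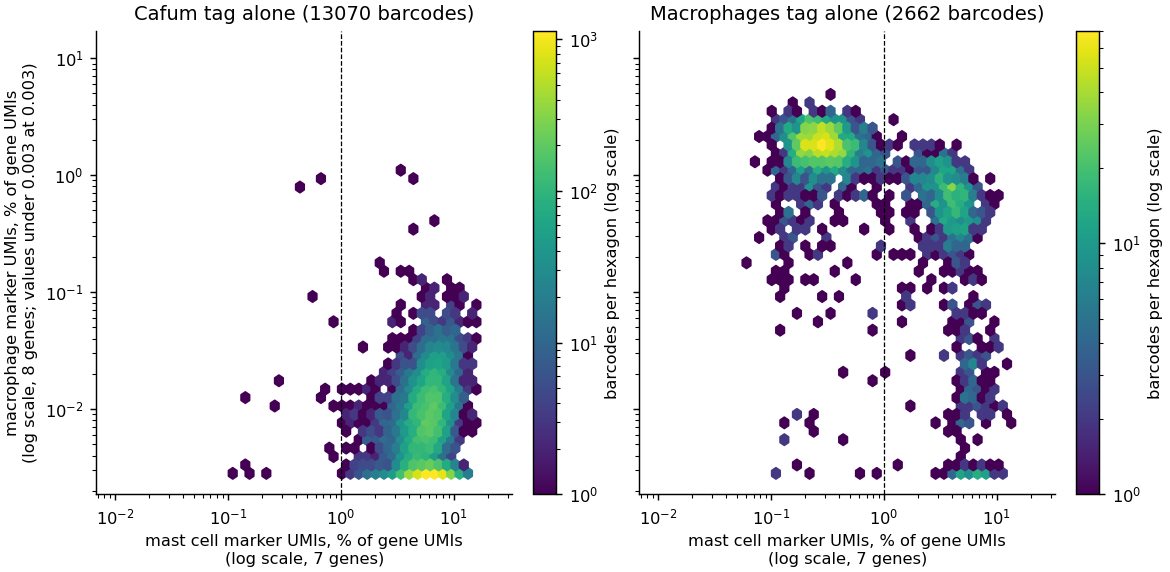
Share of gene UMIs from 7 mast cell genes (x axis, percent, log scale) against 8 macrophage genes (y axis, percent, log scale) in each barcode, with colour for the number of barcodes in a hexagon and a dashed line at 1%. Cafum-tagged barcodes lie right of the line with a median of 6.07%, and Macrophages-tagged barcodes divide into a cloud left of it (1746 barcodes) and a second cloud right of it.

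The Macrophages-tagged barcodes were therefore divided by both gene sets, with limits set after seeing the data. At least 5 of the 8 macrophage genes and a mast cell share under 1% were found in 1685 (63.3%, 61.4–65.1), with a median of 7433 UMIs. Another 667 (25.1%, 23.4–26.7) had at least 5 macrophage genes and a mast cell share of 1% or more. These had a median of 14127 UMIs, held 36.9% of the UMIs of the group, and 26.5% of them were called doublets by Scrublet, against 2.49% of the 1685. Their median Cafum tag count was 2073 UMIs, against 1233 on the 1685. Mast cell genes with at most 1 macrophage gene were found in 145 barcodes (5.45%), and 165 (6.2%) fell in no class. The 145 had a median of 8581 UMIs, a median Cafum tag count of 2023 UMIs and 4.14% called doublets. Their median Macrophages tag count was 3863 UMIs, against 2238 on the 667 and 2464 on the 1685. The Cafum tag count was thus higher in both classes with a high mast cell share, whereas greater depth and more doublet calls went with the 667 barcodes that held both marker sets. The part of these measures in the mast cell share was not tested. In the Cafum group 10128 barcodes (77.5%) had mast cell genes with at most 1 macrophage gene, 27 had both sets, 2 had macrophage genes with a low mast cell share, and 2913 (22.3%) had 2 to 4 macrophage genes or fell in no other class.

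Values below are over all barcodes of a tag unless stated otherwise. List counts and chosen genes are also given between the 10128 Cafum-tagged and the 1685 Macrophages-tagged barcodes of 1 marker class. In the latter the 15 genes that define the classes are used by the choice of barcodes. Between barcodes of 1 marker class, Kit, which the choice did not use, had 1251 and 56.2 CPM, a ratio of 22.3 in place of 2.51. Csf1r had 1.15 and 651 CPM there.

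Kit in the macrophage class stood among the 7 mast cell genes. The choice of barcodes held these 7 genes low there, which bears on any gene expressed with them, so the match is a description. In the 1685 barcodes Kit stood at 0.0449 times its level in the mast cell class, inside the range from 0.0382 to 0.0528 that the 7 mast cell genes gave. Gata1, which encodes a transcription factor of mast and red cells, stood at 0.0435 times (named after its value was seen) and Il1rl1, the IL-33 receptor, at 0.0563 times. The proportions of Gata2 (0.0591), Cd34 (0.0821), Ly6a (0.129), Srgn (0.313), Fcer1g (0.444) and Mitf (1.31) lay above that range. Mast cell UMIs were few but present at all depths. In 4 bins of equal size ordered by depth, their medians were 16, 19, 22 and 30 at median depths of 4402, 6527, 8564 and 13531 UMIs.

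Across all genes, 6765 had 20 CPM or more in either group. Of these, 577 (8.53%) were higher by 2-fold or more in Cafum-tagged and 1333 (19.7%) in Macrophages-tagged barcodes. The median log2 ratio of Cafum over Macrophages was 0.10. The 2 directions differed in size: 14 genes were higher by 4-fold or more in the Cafum group and 718 in the Macrophages group, and 8-fold was passed by 0 and 499. With ratios divided by their median over genes of 50 CPM or more in both groups, a shift of 0.21 on the log2 scale, the calls split 285 to 1524. Between barcodes of 1 marker class, 1504 of 6964 genes (21.6%) were higher in the Cafum group and 1724 (24.8%) in the Macrophages group, 529 and 1096 of them by 4-fold or more. They included 570 of the 577 (98.8%) and 1331 of the 1333 (99.9%), or 37.9% and 77.2% of the calls made there.

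**Figure D2:**
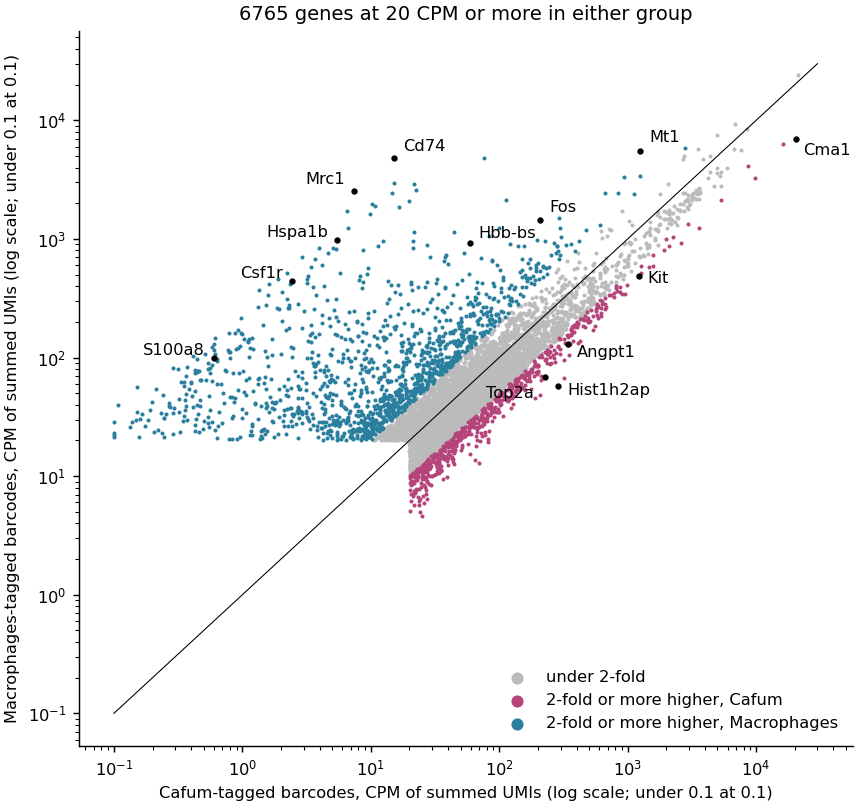
CPM of summed UMIs in Cafum-tagged (x axis, log scale) and Macrophages-tagged barcodes (y axis, log scale) for the 6765 genes at 20 CPM or more in either. The 577 genes higher by 2-fold in the Cafum group stay close to the diagonal and the 1333 higher in the Macrophages group reach far above it, with Mrc1 at 7.41 and 2525 CPM.

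The promoters of 2 genes, taken for the windows with a match among 4 genes looked at, are shown as a mast cell gene and a macrophage gene that differed between the groups. Capitals mark the letters AGATAA, bound by GATA factors, or GAGGAA, bound by PU.1, the product of Spi1, on either strand (as TTATCT or TTCCTC on the other). The sequences are the 250 bases before the RefSeq start, 5′ to 3′ on the strand of the gene, from RefSeq on GRCm38.p6, at chr3:20242182-20242431 (minus strand) and chr2:14229164-14229413 (plus strand).
Cpa3: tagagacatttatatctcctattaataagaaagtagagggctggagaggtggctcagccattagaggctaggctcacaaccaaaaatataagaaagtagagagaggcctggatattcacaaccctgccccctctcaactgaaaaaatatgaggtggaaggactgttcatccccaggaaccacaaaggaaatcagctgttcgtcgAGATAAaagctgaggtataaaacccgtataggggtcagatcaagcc
Mrc1: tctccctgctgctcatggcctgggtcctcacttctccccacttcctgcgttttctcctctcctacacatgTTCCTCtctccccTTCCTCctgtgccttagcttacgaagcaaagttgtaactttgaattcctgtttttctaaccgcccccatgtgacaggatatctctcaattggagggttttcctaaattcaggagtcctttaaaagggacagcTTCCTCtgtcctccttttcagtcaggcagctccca
The same window of Cma1 and of Cd163 held neither run of letters. AGATAA was found in 9.99% of all 32851 promoters of this length, in 5.57% of those of the genes considered, in 8.48% of those of genes higher in the Cafum group and in 5.91% of those higher in the Macrophages group. GAGGAA was found in 23.3% of all promoters, 23.3% of those considered, 21.6% and 26.2%. A match describes the letters and is not a binding site.

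The granule proteases of mast cells were higher in Cafum-tagged barcodes throughout. All 10 of the 14 listed protease genes that reached 20 CPM were higher by 2-fold or more, with a median log2 ratio of 1.53 (4.43 between barcodes of 1 marker class). With stricter tags, 5 of the 10 passed. Cma1, which encodes chymase (chromosome 14, 55941451–55944675, minus strand), had 20334 CPM against 6991 CPM. Mcpt4, another chymase, had 9822 against 3292 CPM, and the tryptase Tpsb2 had 5309 against 2123 CPM. Between barcodes of 1 marker class Cma1 had 21110 and 1016 CPM. Mcpt1, Mcpt2, Mcpt8 and Mcpt9 stayed under 20 CPM, and Mcpt9 had 29 and 0 UMIs.

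Of the IgE receptor and its signalling genes, 5 of the 15 considered were higher in the Cafum group, 2 in the Macrophages group and 8 passed neither fold, with a median log2 ratio of 0.73. Fcer1a, the IgE-binding chain, had 3588 against 1236 CPM, and Ms4a2, the beta chain, had 622 against 226 CPM. The adaptors Lat2 (619 and 239 CPM) and Lat (130 and 47.8 CPM) stood with them. The gamma chain Fcer1g, which macrophage Fc receptors also use, had 3589 and 2163 CPM and did not pass. Between barcodes of 1 marker class its ratio was 2.25. The kinases Syk (42.0 and 287 CPM) and Lyn (230.1 and 565 CPM) were higher in the Macrophages group. Between barcodes of 1 marker class 8 were higher in the Cafum group and 2 in the Macrophages group.

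Of Kit and the cytokine receptors of mast cells, 8 of 14 were higher in the Cafum group and 3 in the Macrophages group, with a median log2 ratio of 1.25 (3.46 between barcodes of 1 marker class). Il1rl1 had 1922 against 799 CPM. Csf2rb, the beta chain shared by the receptors of IL-3, IL-5 and GM-CSF, had 1273 against 516 CPM. The related Csf2rb2 had 1194 against 484 CPM. Il13ra1 (4.58 and 57.3 CPM), Csf2ra, the GM-CSF receptor alpha chain (7.49 and 59.7 CPM), and Il1rap (20.6 and 43.0 CPM) were higher in the Macrophages group. Il4ra (138 and 158 CPM) did not pass.

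Of 19 genes for amines, heparin and eicosanoids, 9 were higher in the Cafum group, 2 in the Macrophages group and 8 passed neither fold. Tph1, the first enzyme of serotonin synthesis, had 2588 against 922 CPM. Hdc, which makes histamine, had 776 against 324 CPM, and Slc18a2, which loads amines into vesicles, had 388 against 180 CPM. The 5-lipoxygenase gene Alox5 had 427 against 212 CPM. Ltc4s, the leukotriene C4 synthase gene, ran the other way with 48.4 against 177 CPM, as did Ext1, which builds the heparan chain, with 218 against 583 CPM. Alox5ap (505 and 436 CPM) passed neither fold. With at most 5% mitochondrial UMIs 3 genes of this list passed in the Cafum group.

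Of 12 cytokine genes of mast cells, 2 were higher in the Cafum group, 3 in the Macrophages group and 7 passed neither fold. Over all genes considered the shares were 8.53% and 19.7%, so these few calls give no result about the list. Il4 had 119 against 44.6 CPM and Il13 27.4 against 11.5 CPM, and were the 2 of 12 genes higher in the Cafum group. Between barcodes of 1 marker class Il4 had 125 and 7.91 CPM. Ccl3 (3.45 and 188 CPM), Ccl4 (9.35 and 502 CPM) and Ccl7 (419 and 968 CPM) were the 3 higher in the Macrophages group. Ccl2, a monocyte attractant, had 1729 and 1679 CPM, with UMIs in 99.9% of Cafum-tagged and 95.8% of Macrophages-tagged barcodes, and 1779 and 1752 CPM in barcodes of 1 marker class. Ccl2 had 333 CPM in the Matrigel group. Ccl2 and Ccl7 were thus abundant on both sides, and Ccl3 and Ccl4 on the Macrophages side. Il9 had no UMI in either group.

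Of transcription factors of mast cells and progenitors, 8 of 17 were higher in the Cafum group, 2 in the Macrophages group and 7 passed neither fold. Gata2, needed for mast cell identity, had 586 against 273 CPM (604 and 35.7 in barcodes of 1 marker class). Meis2 had 414 against 194 CPM, Ikzf2 367 against 161 CPM and Runx3 237 against 90.5 CPM. Lmo2 (18.4 and 65.2 CPM) and Zeb2 (613 and 1309 CPM) were higher in the Macrophages group. Mitf, a factor of mast cells and melanocytes, had 187 and 240 CPM, and Runx1 had 1143 and 1006 CPM. Mitf and Runx1 were therefore near even, also in barcodes of 1 marker class, where Mitf had 189 and 248 CPM.

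Over all barcodes, genes of cell division gave most of the highest ratios of the Cafum group. Among the 12 genes with the largest ratio at 50 CPM or more, 7 were replication-dependent histone genes and 3 others, Pclaf, Prc1 and Cenpw, act in DNA replication or mitosis. Hist1h2ap (chromosome 13, 21833026–21833507, minus strand) had 289 against 57.1 CPM, a ratio of 5.06 (4.82–5.32), and Hist1h1b had 320 against 67.8 CPM. Hist1h3c had the largest ratio, 5.37 (4.84–5.96), with 69.0 against 12.9 CPM. Histone genes are near-identical copies whose reads the counting may share, so single values are uncertain. The other 2 of the 12 were Tesc (81.1 and 20.7 CPM) and Stmn2 (66.0 and 18.1 CPM). Of the 27 considered genes of DNA replication and mitosis, 18 were higher in the Cafum group and 0 in the Macrophages group, with a median log2 ratio of 1.29. Top2a, which untangles replicated DNA (chromosome 11, 98992943–99024189, minus strand), had 226 against 68.7 CPM, and H2afz had 2093 against 874 CPM. Mki67, a proliferation marker, had 119 against 62.1 CPM and did not pass, nor did Tubb5 (288 and 214 CPM). Of the 27, 20 were higher in the Cafum group between barcodes of 1 marker class, with a median log2 ratio of 1.76, below the 4.43 of the proteases. The ratio there was 13.7 for Hist1h3c, 3.78 for Top2a and 24.7 for Tpsb2. However, Tpsb2, Cma1, Mcpt4 and Cpa3 were used to choose these barcodes. The larger protease ratios there follow in part from that choice and give no ranking against the division genes.

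Settings that treat depth differently gave different values for the division genes. With barcodes thinned to equal depth, 15 of 25 considered genes passed, the median log2 ratio was 1.29, and the log2 ratio was 1.72 for Top2a, as without thinning, 2.46 for Hist1h2ap and 0.75 for Mki67. In the subset of barcodes with 5000 to 20000 UMIs, 5 of 19 considered genes of the list passed, the median log2 ratio was 0.76, and the log2 ratio was 1.00 for Top2a and -0.04 for Mki67. For Hist1h2ap it was 2.36 there and 2.34 over all depths. At 6000 UMIs per barcode Top2a was found in 26.9% (26.1–27.7) of Cafum-tagged, 11.1% (9.76–12.5) of Macrophages-tagged and 15.5% of Matrigel-tagged barcodes, and Mki67 in 21.5%, 13.3% and 11.7%. UMIs of Top2a were concentrated: 1% of the Macrophages-tagged barcodes held 48.4% of them. Among cyclins and their inhibitors, Ccnd2 (292 and 145 CPM) and Cdkn2a (37.1 and 14.7 CPM) were higher in the Cafum group, Ccnd1 (4.89 and 66.5 CPM) in the Macrophages group, and 8 of 11 passed neither fold (6 of 11 between barcodes of 1 marker class). Beside shares of 8.53% and 19.7% over all genes considered, calls this few give no result about the list. Glycolysis was near even, with 16 of 17 genes past neither fold. Of these Gapdh had 805 and 545 CPM.

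In the other direction, all 17 considered genes listed as transcription factors of macrophages were higher in Macrophages-tagged barcodes, with a median log2 ratio of -3.97. This held for 19 of 19 between barcodes of 1 marker class, with a median of -4.61. Klf4 had 8.66 against 813 CPM and Cebpb 39.7 against 619 CPM. Klf2 had 252 against 734 CPM. Zfp36l1, which is on the list but encodes an RNA-binding protein, had 168 against 628 CPM. Spi1, which encodes PU.1 and is expressed by both lineages, had 64.1 against 142 CPM, a smaller difference than those of the other named genes of this list.

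Receptors and surface markers of macrophages gave many of the largest ratios. Of the 28 considered, 23 were higher in the Macrophages group, with a median log2 ratio of -6.63 (26 of 30 and -7.42 between barcodes of 1 marker class). Mrc1, the mannose receptor (chromosome 2, 14229392–14332057, plus strand), had 7.41 against 2525 CPM, a 341-fold difference. Cd36, a scavenger receptor, had 3.94 against 834 CPM, and Folr2 had 3.16 against 426 CPM. Lyve1 had 1.36 against 367 CPM and the haemoglobin scavenger Cd163 1.61 against 416 CPM. Chp2 had the largest ratio at 50 CPM or more (0.152 and 56.0 CPM), and F13a1, coagulation factor XIII, had 6.48 against 1708 CPM. Csf2rb was the 1 listed gene higher in the Cafum group. Cx3cr1, the fractalkine receptor, had 71.3 and 90.3 CPM and the signalling adaptor Tyrobp 2447 and 1516 CPM. The Fc receptor Fcgr3 had 139.7 and 274 CPM, and none of these passed the fold. Of the list 4 genes passed neither fold over all barcodes, and 2 between barcodes of 1 marker class.

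Detection of receptors that did not choose the macrophage class was read in its 1685 barcodes. Folr2 had UMIs in 80.2% of them and Lyve1 in 66.5%. Timd4, a receptor of long-lived resident macrophages, had UMIs in 47.1% and Ccr2, the receptor of recruited monocytes, in 25.04%. These shares are unthinned and depend on each gene's level, so they do not show how evenly a gene was spread. The same genes had UMIs in 5.13% (Folr2), 2.08% (Lyve1), 0.757% (Timd4) and 2.21% (Ccr2) of Cafum-tagged barcodes, whose median depth was higher. Timd4 and Ccr2 were picked after their values were seen.

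Genes of complement and antigen presentation were mostly higher in the Macrophages group. Of complement genes, 13 of 16 were higher in the Macrophages group (15 of 18 between barcodes of 1 marker class), among them C1qb (9.79 and 1614 CPM) and C1qc (6.67 and 1239 CPM). The membrane inhibitors Cd55 (662 and 258 CPM) and Cd59a (36.8 and 14.7 CPM) were higher in the Cafum group. All 10 considered genes of MHC class II presentation were higher in the Macrophages group, with a median log2 ratio of -7.05 (-7.77 between barcodes of 1 marker class). Cd74, the invariant chain, had 15.3 against 4824 CPM, and 12.8 against 7294 CPM between barcodes of 1 marker class. Beside it H2-Aa had 14.6 against 2462 CPM and H2-Eb1 10.7 against 1912 CPM. The listed MHC class II genes summed to 88.7 CPM in the Cafum and 87.4 CPM in the Matrigel group, against 12211 CPM.

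Lysosomal and lipid genes differed by less. Of 29 lysosomal genes, 19 were higher in the Macrophages group, 1 in the Cafum group and 9 passed neither fold, with a median log2 ratio of -1.59 (21, 3 and 6 of 30, and -2.27, between barcodes of 1 marker class). Lyz2, lysozyme, had 21.8 against 2884 CPM and the cathepsin gene Ctsb 100.1 against 1238 CPM, whereas Ctsd had 663 and 522 CPM. Cd63, a granule and lysosome membrane protein, had 1990.3 against 994 CPM. Of 21 lipid-handling genes, 14 were higher in the Macrophages group, with Apoe, the lipid carrier, at 76.1 and 4787 CPM and Pltp at 3.17 and 455 CPM. Sqle, an enzyme of cholesterol synthesis, had 48.6 against 21.5 CPM and was the 1 higher in the Cafum group. In barcodes of 1 marker class 14 lipid genes were higher in the Macrophages and 2 in the Cafum group.

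Chemokines and their receptors were higher in the Macrophages group in 19 of 21 genes, with a median log2 ratio of -5.68 (19 of 21 and -6.21 between barcodes of 1 marker class). Cxcl2, a neutrophil attractant, had 15.2 against 2959 CPM, Pf4 had 19.7 against 2072 CPM and Ccl6 12.5 against 959 CPM. Among growth factors of vessels and matrix, 7 of 14 were higher in the Macrophages group, including Igf1 (4.74 and 216 CPM), Gas6 (5.56 and 203 CPM), Pdgfc (1.02 and 143 CPM) and Pros1 (87.0 and 193 CPM). Angpt1, the ligand of the endothelial receptor Tie2 (chromosome 15, 42424723–42676977, minus strand, overlapping Gm17473 on the other strand), had 342 against 129 CPM and was the 1 higher in the Cafum group. It had 340.3 and 19.5 CPM in barcodes of 1 marker class, where 4 growth factors were higher in the Cafum group and 9 in the Macrophages group. Of interferon-responsive genes, 8 of 12 were higher in the Macrophages group (9 of 13 between barcodes of 1 marker class), among them Ifi207 (21.2 and 964 CPM) and Ifi27l2a (38.5 and 733 CPM). Ifitm2 had 1043 and 902 CPM and passed neither fold.

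Immediate early and stress genes were higher in Macrophages-tagged barcodes in 15 of 20 genes and in the Cafum group in 0, with a median log2 ratio of -2.34. The counts between barcodes of 1 marker class were 16 and 1 of 20, with a median of -2.77. Hspa1b, a heat shock protein (chromosome 17, 34956436–34959238, minus strand), had 5.50 against 970.1 CPM. Fos (chromosome 12, 85473890–85477273, plus strand) had 208 against 1452 CPM, Junb 289.9 against 1496 CPM and Jun 196 against 977 CPM. Per barcode, Hspa1b had a median of 476 CPM and a 95th percentile of 5135 CPM in the Macrophages group, and 0 and 49.6 CPM in the Cafum group. Fos had medians of 901 and 136 CPM. Egr1 (623 and 1172 CPM) and Ier3 (1254 and 844 CPM) passed neither fold. Mt1, a metallothionein, had 1252 against 5521 CPM, and 9014 CPM in the Matrigel group. Mitochondrial UMIs were also higher in the Macrophages group (median 4.11% against 2.08%). With at most 5% mitochondrial UMIs in both groups 15 of 20 stress genes passed, with a median log2 ratio of -2.13. The part of cell handling in this list was not tested.

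**Figure D3:**
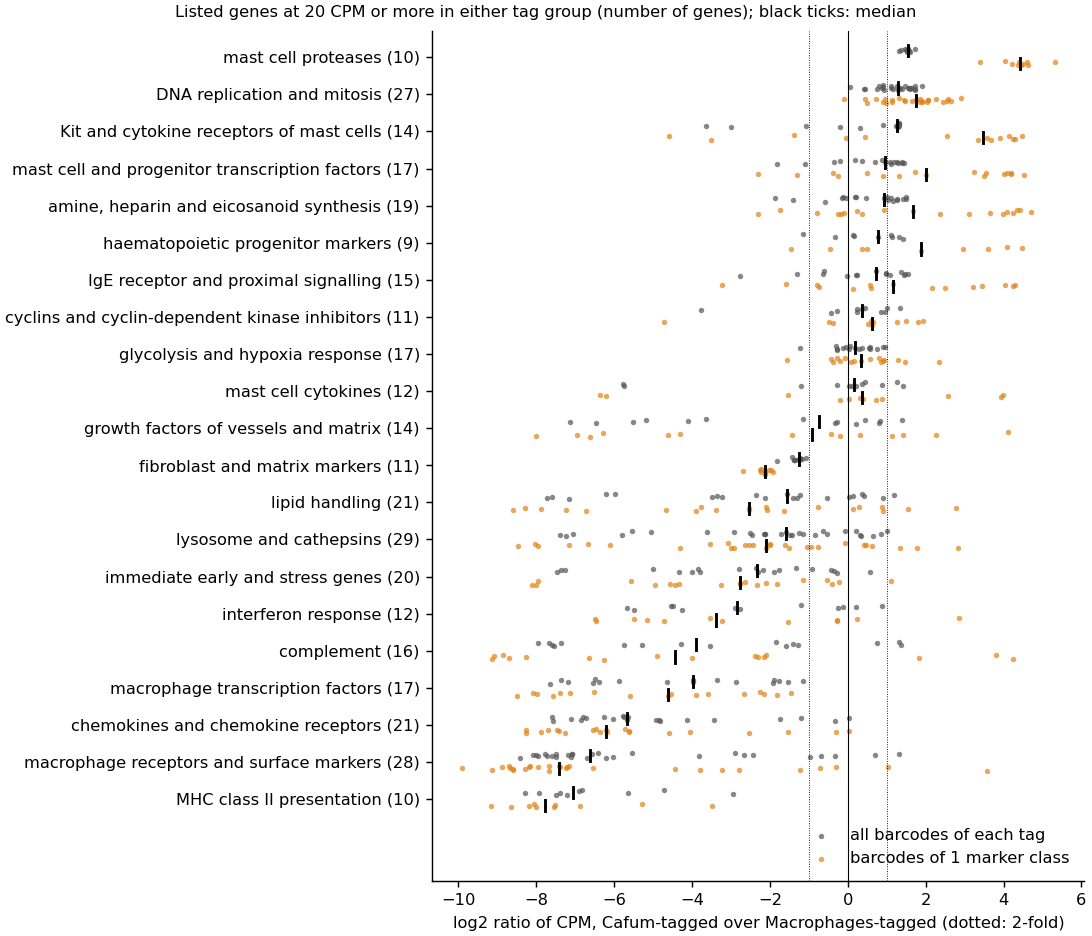
Log2 ratio of CPM, Cafum-tagged over Macrophages-tagged (x axis), for the genes of each list (y axis) at 20 CPM or more, over all barcodes (grey) and for the same genes in barcodes of 1 marker class (orange), with black ticks at the medians. Protease medians move from 1.53 to 4.43 between the settings, and MHC class II genes lie on the Macrophages side in both.

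Markers of other cell types were read beside these results. Of 15 fibroblast and matrix genes, 11 reached 20 CPM and all 11 were higher in the Macrophages group, with a median log2 ratio of -1.26 (13 of 13 and -2.13 between barcodes of 1 marker class). Their summed level was 2427 CPM in the Cafum, 5625 CPM in the Macrophages and 32676 CPM in the Matrigel group. Mgp had 1126, 2380 and 12658 CPM. Its UMIs were found in 97.5% of Cafum-tagged and 96.0% of Macrophages-tagged barcodes, with medians of 282 and 382 CPM per barcode, and 1% of barcodes held 55.6% and 60.6% of them. By the mean of barcode CPM 3 of the 11 genes passed, and 4 without called doublets, with medians of -0.90 and -0.93. The part of transcripts from the Matrigel suspension in this difference was not tested. Smooth muscle markers reached 20 CPM in 0 of 9 genes. Of 14 endothelial genes only Pecam1, which blood cells also carry, reached 20 CPM (82.5 and 38.0 CPM). Cdh5, the endothelial cadherin, had UMIs in 3 of the 13070 Cafum-tagged and 18 of the 2662 Macrophages-tagged barcodes (0.676%), and is named after its values were seen.

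Blood cell markers differed in how their UMIs were spread over barcodes. Haemoglobin Hbb-bs had 58.9 against 923 CPM and Hba-a1 20.4 against 432 CPM. Hbb-bs had UMIs in 1618 Cafum-tagged (12.4%) and 272 Macrophages-tagged barcodes (10.2%). However, 27 barcodes, 1% of the Macrophages group, held 99.1% of the Hbb-bs UMIs, and the highest barcode stood at 268270 CPM. In the Cafum group 131 barcodes, again 1%, held 88.7%. Hba-a1 and Hba-a2 are near-identical copies. The neutrophil genes S100a8 (0.603 and 98.3 CPM) and Camp (0.134 and 26.1 CPM) had UMIs in 29 and 8 Macrophages-tagged barcodes. For Camp the highest of these barcodes held 753 of the 760 UMIs, and for S100a8 the highest held 2251 of 2866. With stricter tags the log2 ratio of Camp was -0.52 in place of -7.60, and that of S100a8 -5.11 in place of -7.35. In barcodes of 1 marker class Camp had 0.123 and 0.132 CPM and S100a8 0.301 and 15.3 CPM, under the floor of 20 CPM. S100a9, the other neutrophil gene considered, had 0.893 and 117 CPM over all barcodes, and 0.509 and 24.5 CPM between barcodes of 1 marker class, where it was still 48.0-fold higher in the Macrophages group. Its UMIs were found in 32 Macrophages-tagged barcodes, the highest of which held 2535 of 3426. The platelet and macrophage gene Pf4 had UMIs in 91.1% of Macrophages-tagged barcodes and Ighm, an immunoglobulin chain, in 58.5% (1.2 and 118 CPM), with 6.64% of Ighm UMIs in the top 1% of barcodes. Siglech, a marker of plasmacytoid dendritic cells (0.147 and 29.6 CPM), had UMIs in 18.3%, and Cd209a had 0.772 and 116 CPM. Ighm and Siglech were thus carried by many Macrophages-tagged barcodes, whereas neutrophil transcripts were found in few. Haemoglobin UMIs were found in more barcodes than neutrophil ones, but nearly all of them lay in few. The single T, NK and B cell gene considered was Ighm. Of basophil and eosinophil genes, Cd200r3 (446 and 184 CPM), Prss34 (34.0 and 11.8 CPM) and Il5ra (20.6 and 7.06 CPM) were higher in the Cafum group, and Epx and Prg3 had no UMI in either.

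**Figure D4:**
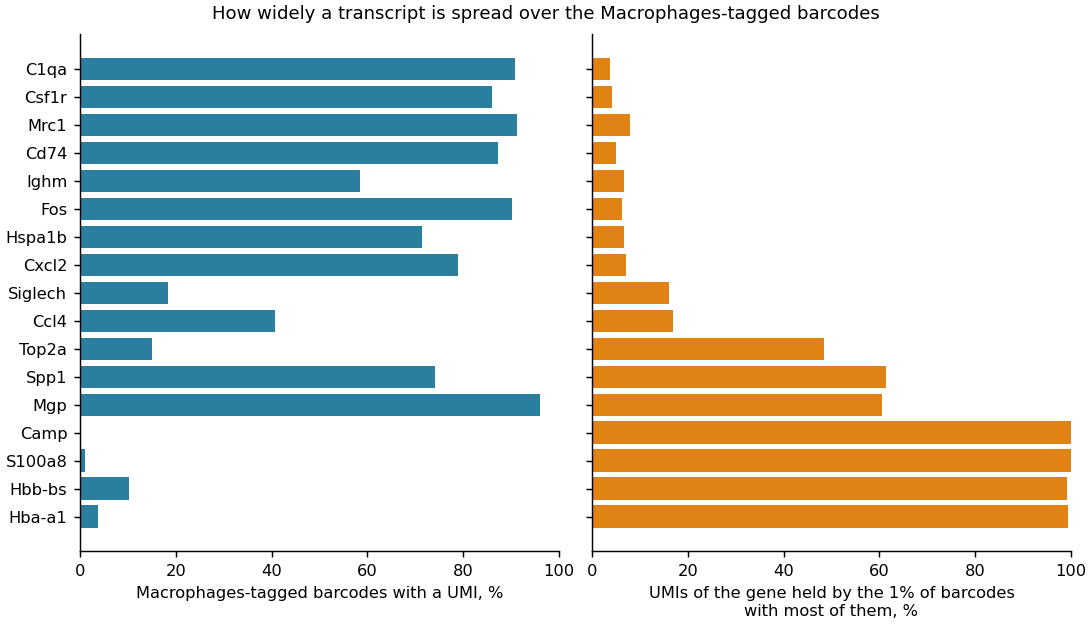
Percent of the 2662 Macrophages-tagged barcodes with a UMI of a gene (left) and percent of the gene's UMIs held by the 27 barcodes with most of them (right). Haemoglobin and neutrophil genes have nearly all UMIs in these 27 barcodes (99.1% for Hbb-bs), and C1qa and Csf1r have 3.72% and 4.21%.

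Of 17 progenitor markers 9 reached 20 CPM. Kit, Cd34, Ly6a and Gata2 were higher in the Cafum group, Spi1 in the Macrophages group, and 4, Cd93 and Cd48 among them, passed neither fold. Restricted to 1 marker class, 5 were higher in the Cafum and 1 in the Macrophages group. Detection was compared at 6000 UMIs per barcode, which left out 544 Cafum-tagged and 633 Macrophages-tagged barcodes with fewer UMIs. Median detected genes were then 2229 and 2252, close to even. Kit was found in 99.1% (98.9–99.2) of Cafum-tagged and 55.3% (53.2–57.5) of Macrophages-tagged barcodes, and in 23.7% (21.3–26.2) of those of the macrophage class. In the Matrigel group Kit was found in 42.4% (40.7–44.2), but 68.98% of that group had a mast cell share under 1% and the rest more, so it is no background for Kit. The macrophage class was chosen for a mast cell share under 1%, which bears on its low Kit share. Unthinned, the shares were 99.9%, 57.1%, 35.9% and 73.2% at median depths of 15112, 8666, 7433 and 30163 UMIs. Csf1r was found in 1.34% (1.15–1.56) of Cafum-tagged, 79.4% (77.6–81.1) of Macrophages-tagged and 3.91% of Matrigel-tagged barcodes. Unthinned, the Csf1r shares were 3.86%, 86.03% and 14.9%. Cpa3, the other mast cell marker, was found at 6000 UMIs in 100% of Cafum-tagged and 98.4% of Macrophages-tagged barcodes. Its share was 97.7% in the macrophage class and 91.5% in the Matrigel group, so it was found in nearly all barcodes where Kit was not.

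Cd34 was found in 32.8% (32.0–33.6) of Cafum-tagged, 11.5% (10.2–13.0) of Macrophages-tagged and 2.49% (1.67–3.56) of macrophage-class barcodes at 6000 UMIs, with 12.4% in the Matrigel group. Ly6a, the gene of Sca-1, was found in 71.8%, 39.5%, 23.6% and 71.6% in the same order. Reads of the related Ly6 genes can be assigned to it and the value is uncertain. Ly6a had 586 CPM in the Cafum, 267 CPM in the Macrophages and 508 CPM in the Matrigel group. Unthinned, Cd34 had shares of 59.6% and 17.5% and Ly6a of 85.3% and 46.1% in the tag groups.

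**Figure D5:**
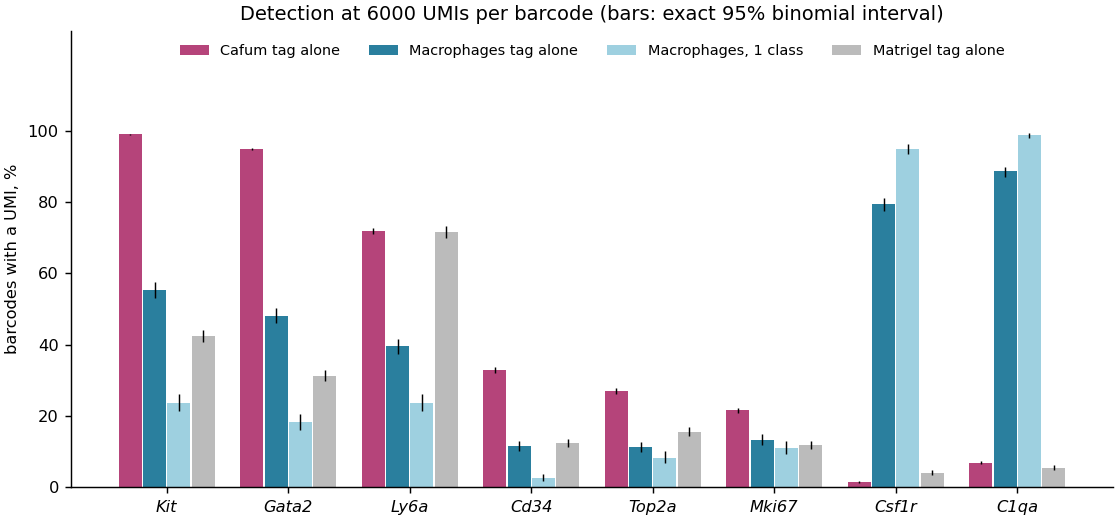
Percent of barcodes with a UMI (y axis) for 8 genes after thinning to 6000 UMIs, with exact 95% intervals, in the Cafum group, the Macrophages group, its macrophage class and the Matrigel group. Kit is found in 99.1%, 55.3%, 23.7% and 42.4%.

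Transcripts of the sex chromosomes did not match a library of male mice alone. Xist, expressed from the inactive X chromosome of females, had 406 CPM in the Cafum, 420.4 CPM in the Macrophages and 682 CPM in the Matrigel group. The 4 Y-linked genes Ddx3y, Uty, Kdm5d and Eif2s3y summed to 43.9, 106 and 70.6 CPM. Among barcodes of 10000 UMIs or more, 4166 of 9886 Cafum-tagged (42.1%) and 367 of 1072 Macrophages-tagged barcodes (34.2%) had 3 or more Xist UMIs and no Y-linked UMI, and 1181 (11.9%) and 235 (21.9%) had Y-linked UMIs and no Xist. Both groups thus held both kinds of barcode. Within barcodes with 3 or more Xist and no Y-linked UMIs (5399 Cafum-tagged, 784 Macrophages-tagged), 470 genes were higher in the Cafum and 1322 in the Macrophages group. Within those with Y-linked and no Xist UMIs (1498 and 681), these numbers were 1187 and 1518. Shared calls were 433 (92.1% and 36.5% of the lists) and 1225 (92.7% and 80.7%), and 0 genes were called in opposite directions. Hbb-bs had a log2 ratio of -5.31 in the first set and -7.98 in the second, and S100a8 of -3.62 and -11.25.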

How the data were processed

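Of 2 samples, the gene expression library was analysed, and its tag counts are in the same matrix. The deposited matrix holds raw, unnormalized UMI counts per barcode of 32285 genes and 3 tag features, and its file header names Cell Ranger 7.0.0. The submitters' processing notes name mm10, STAR, R 4.1.3 and Seurat 4.1.1. Counting of introns and strand is not given in the sources used here. Tags held 21.9% of all UMIs and stayed out of gene totals.

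Filters required 500 or more genes, 1000 or more gene UMIs and no more than 10% mitochondrial UMIs. A tag was positive at 2 times its background or more (1.4 times for Cafum). The background was the median tag count, and for Cafum its median in the 5283 barcodes where another tag reached 4 times its own median. Summed UMIs were scaled to CPM, with exact Poisson intervals, and genes with 20 CPM or more in either group were compared by the ratio, called at 2-fold. Shares carry exact Clopper-Pearson intervals. Genes were named by a rule: the 4 markers, in each direction the 12 largest ratios at 50 CPM or more and the 5 highest levels, and of each of 31 lists up to 4 genes past the fold in each direction, by level, with up to 2 not past it. The members and lists were chosen with earlier results of these data known. Scrublet (scanpy 1.11.5, expected doublet rate 27.9%) used a score threshold of 0.564 and called 3242 barcodes (9.31%). The ratio and thinning code was tested on simulated data. Alternatives are listed in the closing section. Coordinates are from GENCODE on GRCm38 and promoters from RefSeq.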

Additional observations from a re-analysis of the deposited data

Results flagged for a closer look

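Barcodes positive for both the Cafum and the Macrophages tag were in no comparison above. There were 1185 of them, and 69.3% (66.6–71.9) had at least 5 of the 8 macrophage genes together with a mast cell share of 1% or more. Their median depth was 18742 UMIs and Scrublet called 40.2% of them doublets. The same marker pattern was found in 25.1% of the barcodes with the Macrophages tag alone and in 0.207% of those with the Cafum tag alone.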

How the results depend on the processing

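Of the 577 genes higher in the Cafum group, the number was 184 with stricter and 929 with looser tag thresholds, 258 with at most 5% mitochondrial UMIs, 872 by the mean of barcode CPM and 285 with ratios divided by their median. It was 225 at 100 CPM or more, 4925 with no filter on low genes, 1605 at 1.5-fold and 14 at 4-fold. Among settings chosen after seeing the data it was 1504 in barcodes of 1 marker class and 1187 in barcodes with Y-linked and no Xist transcripts. Of the 1333 genes higher in the Macrophages group, the number was 517 at 100 CPM or more, 7136 with no filter and 718 at 4-fold, and within 1.5 times the main count in all other settings run. The Cafum tag alone was found on 4783 barcodes with stricter tags. The median mast cell share was then 5.62% in the Cafum and 0.629% in the Macrophages group, and 6.12% and 0.353% without called doublets. The stricter setting raised all 3 tag thresholds and left 2998 in place of 2662 barcodes with the Macrophages tag alone. Of all list medians, that of the endothelial list changed sign (1.12, Pecam1 alone). It was -1.70 with looser tags, -1.54 with all deposited barcodes, -1.59 without called doublets, -1.82 with no filter, -1.68 where tag and macrophage markers agreed, -1.11 in barcodes of 1 marker class and -1.70 with Y-linked and no Xist transcripts. The genes behind this median differ between settings. In barcodes of 1 marker class 2 were considered, 1 higher in each group, and Pecam1 kept its direction with 83.6 and 11.2 CPM. No named gene past 2-fold changed sign. However, Kit fell under 2-fold with stricter tags (log2 ratio 0.93) and stood at 1.03 with at most 5% mitochondrial UMIs.

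Depth limits genes near 20 CPM most in the Macrophages group, which holds fewer UMIs. No replicate library was analysed, so no setting tests whether a difference would recur. No paired analysis was possible because there is 1 library.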
